A study of Solanum lycopersicum with 8 samples.

Results

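The set described here holds 91 tomato genes whose transcripts were higher in young leaves of a DELLA mutant than in its comparison cultivar both with and without the gibberellin GA3, at about the same level in both treatments. It was drawn from a table of 34722 gene identifiers, of which 16205 had a mean of at least 1 CPM (counts divided by the library total and scaled to 1e6) over the 8 libraries. All seedlings, of the cultivar M82 and of the mutant proΔGRAS, had received paclobutrazol, which blocks the making of gibberellin, on 3 days at a dose of 10 mg/l. Some seedlings of each line were then given GA3 at 100 µM, and leaves were taken 3 hours later, so that the 4 groups were M82 without GA3, M82 with GA3, the mutant without GA3 and the mutant with GA3. Each group held 2 libraries, which are called here by the number they carry in the table.

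DELLA proteins are repressors of gibberellin responses. When gibberellin binds its GID1 receptor, DELLA is marked for destruction by an F-box protein, and the genes it held back are released. PROCERA encodes the tomato DELLA, and plants that lack it grow as if saturated with gibberellin. The 91 genes are ones whose higher level in the mutant came without a GA3 difference of that size in M82 at 3 hours, as the rule required.

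The rule worked on log2(CPM + 0.5). A member had a lowest mutant value, over the 4 mutant libraries of both treatments, at least 0.7 above the highest of the 4 M82 values, a distance called the gap below. The mean GA3 difference had to stay below 0.5 in size in each genotype. Of the 16205 genes, 11222 met both GA3 limits and 152 met the gap, and 91 did both. The genotype differences, and the small GA3 differences, are the values by which the genes were selected, and they are given as a description with no test of their own. Members were chosen by all 8 libraries, so none is left over to test them in. The labels do not say how closely the 2 lines are related outside PROCERA, and an effect of PROCERA and of any other difference between the lines cannot be told apart. In leaf RNA, a change in the share of a cell type and a change in RNA per cell cannot be told apart either.

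The table does not pair its identifiers with gene names, and 0 of the 34722 matched the tomato gene table used here. No function, protein or promoter sequence is therefore given, and the levels of PROCERA and of leaf marker genes were not analysed here. The 2 members with the largest gap are given by identifier and the others by the chromosome number that the identifier carries. Total counts per library ran from 14395465 to 18483028. The 100 most abundant genes took 45.5% of the counts in M82 library 3 without GA3 and 50.3% in M82 library 2 with GA3, against 31.4% to 41.3% in the other 6 libraries. The median genotype difference of the 16205 genes was 0.20 on the log2 scale by library totals and 0.0041 after TMM scaling, which adjusts for genes that take unequal shares of the libraries.

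The members were mostly of low to middle abundance. The median of their mean CPM was 6.42, against 10.6 for all 16205 genes, and 33 of 91 (36.3%) lay under 5 CPM, against 30.3% of all. Only 8 members (8.79%) reached 50 CPM, against 15.8% of all. In M82 the median member stood at 2.72 CPM in library 1 and 2.71 in library 3 without GA3, and at 3.04 in library 1 and 2.67 in library 2 with GA3. In the mutant it stood at 9.68 in library 1 and 9.05 in library 3 without GA3, and at 12.8 in library 1 and 10.2 in library 3 with GA3. The 4 mutant libraries lay above the 4 M82 libraries for the median member, as the rule required, and the highest mutant library was library 1 with GA3.

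**Figure D1:**
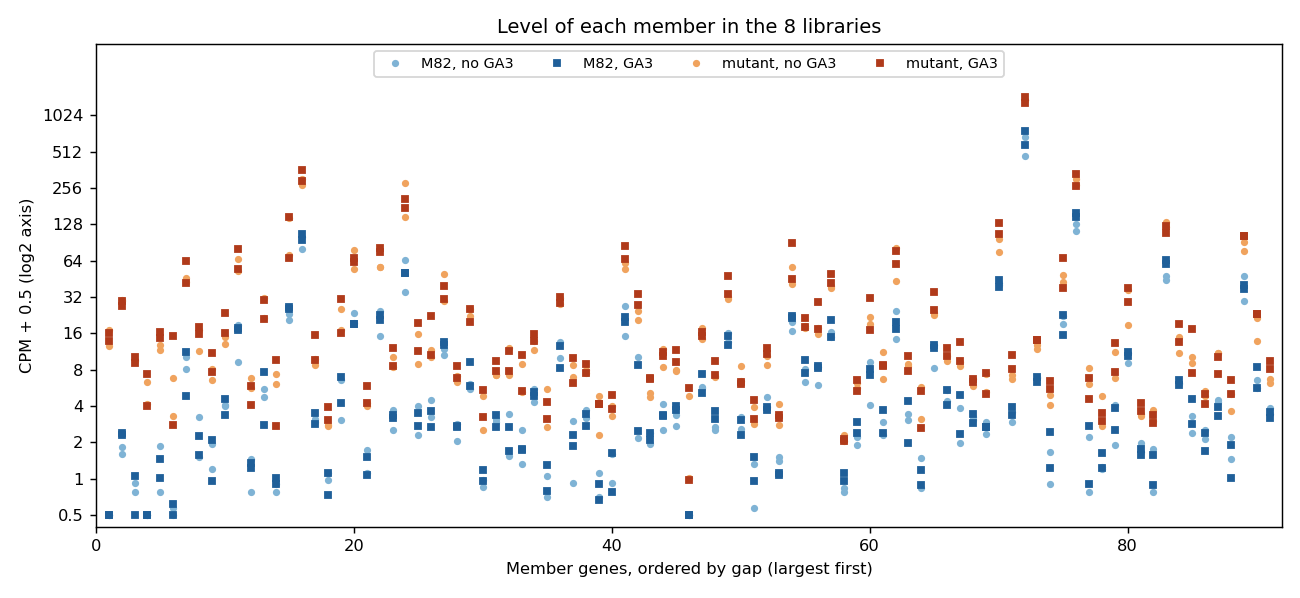
CPM + 0.5 (log2 axis) of each of the 91 members in the 8 libraries, members ordered from the largest to the smallest gap. Points are single libraries, coloured by genotype and treatment; 3 members sit at 0.5, a count of 0, in all 4 M82 libraries, and the most abundant member stands at 470 CPM or more in every library.

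The genotype difference, as the mean of the 4 mutant values minus that of the 4 M82 values, had a median of 1.66 over the members (quartiles 1.33 and 2.03, log2 scale), against 0.20 over the 16205 genes. After TMM scaling these medians were 1.46 and 0.0041. On linear means, 59 of 91 members were at least 3 times as high in the mutant. At least 4 times as high were 35, and at least 8 times 10, with members at 0 in M82 counted in. The rule selected on the same values. These ratios are by library totals and were not counted with TMM or over all genes. The gap itself had a median of 0.95, was at least 1 in 44 members and at least 2 in 6.

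Solyc11g008420.1, on chromosome 11, had the largest gap, 4.66. It had a count of 0 in each of the 4 M82 libraries. In the mutant it had 225 and 296 counts in libraries 1 and 3 without GA3, and 283 and 227 in libraries 1 and 3 with GA3. The mutant level was 13.4 ± 2.23 TMM-scaled CPM (SD, n = 4), at least 269-fold higher than the floor of 3 counts over the 4 M82 libraries. This transcript was thus detected in the mutant libraries and not detected at this depth in M82, with either treatment.

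Solyc10g083300.1, on chromosome 10, had the second largest gap, 3.49, and was detected in all 8 libraries. In M82 it stood at 1.09 CPM in library 1 and 1.32 in library 3 without GA3, and at 1.91 in library 1 and 1.82 in library 2 with GA3. In the mutant it stood at 29.2 CPM in library 1 and 29.7 in library 3 without GA3, and at 26.7 in library 1 and 29.2 in library 3 with GA3. The mutant libraries lay within a narrow band, 18.7 times the M82 mean. The log2 fold change fitted by edgeR was 4.49 (SE 0.291) without GA3 and 3.58 (SE 0.272) with GA3. Both M82 libraries with GA3 were above both without it, a difference of 0.48 on the scale of the rule, just inside its limit. In the edgeR fit, which uses TMM scaling and a smaller added constant, it was 0.68 (SE 0.303, edgeR adjusted p = 0.653).

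A count of 0 in all 4 M82 libraries was found in 3 members. They met the mean of at least 1 CPM through the mutant libraries alone, and such genes were not counted among all 16205. Some members with counts in M82 also averaged under 1 CPM there, and passed that minimum because the mutant libraries raised their mean. The scarcest member, on chromosome 11, averaged 0.423 over the M82 libraries against 1.64 over those of the mutant. The lower quartile of the M82 means of the members was 1.16 CPM. Beside Solyc11g008420.1 the members at 0 in M82 were 2 genes on chromosome 1. The first of them had 108 and 65 counts in mutant libraries 1 and 3 without GA3 and 125 and 60 with GA3, a pooled level at least 91.8-fold above the floor. The second had 81 and 9 counts in mutant libraries 1 and 3 without GA3 and 94 and 8 with GA3, so that its mean, at least 47.9-fold above the floor, rested on the number 1 libraries. It was the only member with fewer than 10 counts in a mutant library. In M82, 23 of 91 members had fewer than 10 counts in at least 1 library, and the size of their difference is correspondingly imprecise.

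Other members were scarce in M82 without being at 0 throughout. One on chromosome 8 had 4 and 6 counts in M82 libraries 1 and 3 without GA3 and 10 and 0 in libraries 1 and 2 with GA3, against 146 to 175 counts in the mutant libraries. One on chromosome 12 had 4 to 20 counts in the M82 libraries and 199 to 289 in the mutant. In both, the mutant libraries differed little among themselves and lay far above all of M82. Not all scarce members were so even. One on chromosome 9 had 0 to 2 counts in the M82 libraries and 39 to 269 in the mutant. Another on chromosome 9 had 4 to 9 counts in M82 and 38 to 166 in the mutant.

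At the other end stood the most abundant member, on chromosome 3. It had 681 CPM in library 1 and 470 in library 3 of M82 without GA3, and 762 in library 1 and 578 in library 2 with GA3. In the mutant it had 1367 CPM in library 1 and 1377 in library 3 without GA3, and 1448 in library 1 and 1301 in library 3 with GA3. The mutant libraries thus spanned a narrower range, relative to their level, than the M82 libraries, and all lay above them. All 91 members summed to between 1230 and 1637 CPM in the M82 libraries and to between 3714 and 4373 in the mutant libraries. Without this member the sums were 760 to 875 and 2337 to 2925 CPM. That the sums were higher in the mutant, with or without it, follows from the rule.

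The genotypes did not overlap in any member, by the rule. Among the 16205 genes, 0.938% met the gap of 0.7 upwards, and 10.9% had all mutant values above all M82 values while 2.36% had all below. That imbalance changed with the scaling, and with TMM the shares were 6.33% above and 6.25% below, of 16181 genes with a mean of at least 1 TMM-scaled CPM. The same rule turned round, for genes lower in the mutant, found 13 genes by library totals, so that 87.5% of the genes of both rules were higher in the mutant. With TMM it found 25 lower beside 63 higher, or 71.6% higher. With TMM, 57 of the 91 members kept a gap of at least 0.7, and 54 met the whole rule (59.3% of the 91 and 85.7% of the 63). All 91 kept a gap above 0, as they had to, because TMM factors of 0.811 to 1.16 cannot shift a gap by 0.7.

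**Figure D2:**
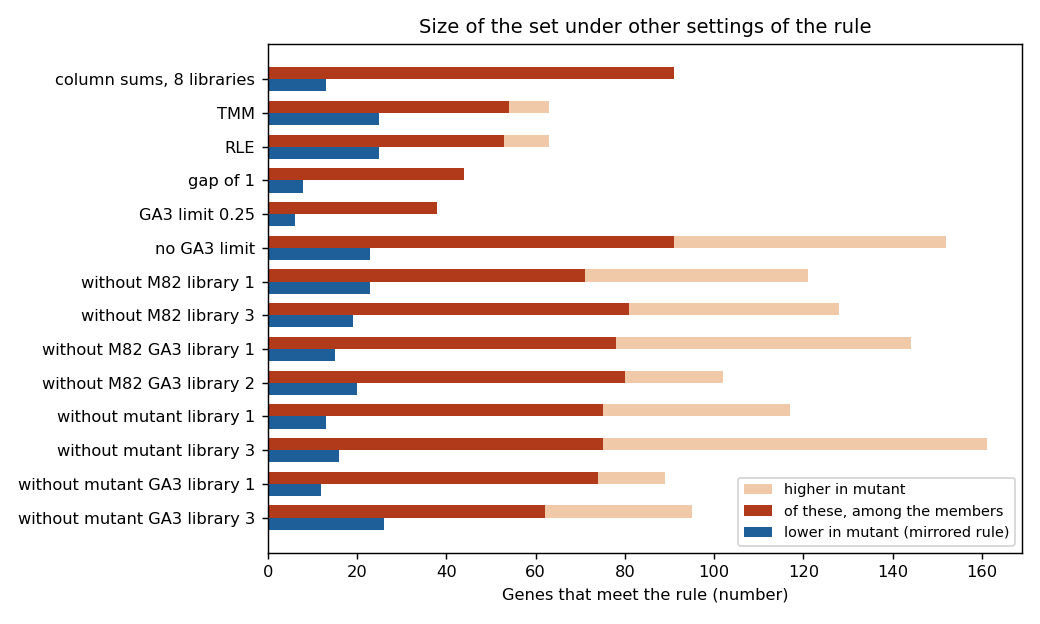
Number of genes that met the rule under other scalings, limits and without single libraries (horizontal bars). Dark red is the part shared with the 91 members and blue is the mirrored rule for genes lower in the mutant; the set held 63 genes with TMM or RLE scaling and 89 to 161 without 1 library.

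The edge of the set was not a break in the data. With the GA3 limits met, 24 genes had a gap between 0.7 and 0.8 and 38 had one between 0.6 and 0.7. The last gene inside, on chromosome 8, had a gap of 0.702, with M82 libraries from 2.67 to 3.33 CPM and mutant libraries from 5.74 to 8.92 CPM. The first outside, on chromosome 3, had a gap of 0.697, with 6.32 to 8.91 CPM in M82 and 14.8 to 19.1 CPM in the mutant. Such genes on either side of the limit had like gaps, being picked as the nearest to it, and differed in level.

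All 91 members passed the filter on low counts in the count model, edgeR's quasi-likelihood test in 1 fit of the 4 groups over 18340 genes. Without GA3, 13 of 91 were called higher in the mutant at an adjusted p under 0.05, where 0.294% of all genes tested were. With GA3, 8 of 91 were called higher, where 0.191% of all were. Of the members, 6 were called in both treatments and 76 in neither. Among all genes, at most 0.191% can have been called in both. With DESeq2, 62 were called without GA3 (1.61% of all genes) and 59 with GA3 (1.53%). In both treatments DESeq2 called 47 members, where at most 1.53% of all genes can have been. The rule used these contrasts, so the counts describe how many of the differences a model with 2 libraries per group resolves and say nothing more about the members. The median log2 fold change of the members was 1.61 without GA3 and 1.50 with GA3, against -0.015 and 0.011 for all genes tested.

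The calls depended on single libraries, among all genes as among the members. Without GA3, the 13 members among 54 genes called higher became 7 among 14 without M82 library 3 without GA3 and 8 among 32 without M82 library 1 with GA3. They became 2 among 2 and 1 among 1 without mutant libraries 1 and 3 without GA3. With GA3, the 8 members among 35 genes became 36 among 127 and 37 among 127 without M82 libraries 1 and 3 without GA3. They became 3 among 4 and 2 among 2 without M82 libraries 1 and 2 with GA3, 2 among 7 and 2 among 6 without mutant libraries 1 and 3 without GA3, and 3 among 10 without mutant library 1 with GA3. Without both M82 libraries in which few genes took the most counts, 8 members were called in each treatment, among 26 and 21 genes.

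**Figure D3:**
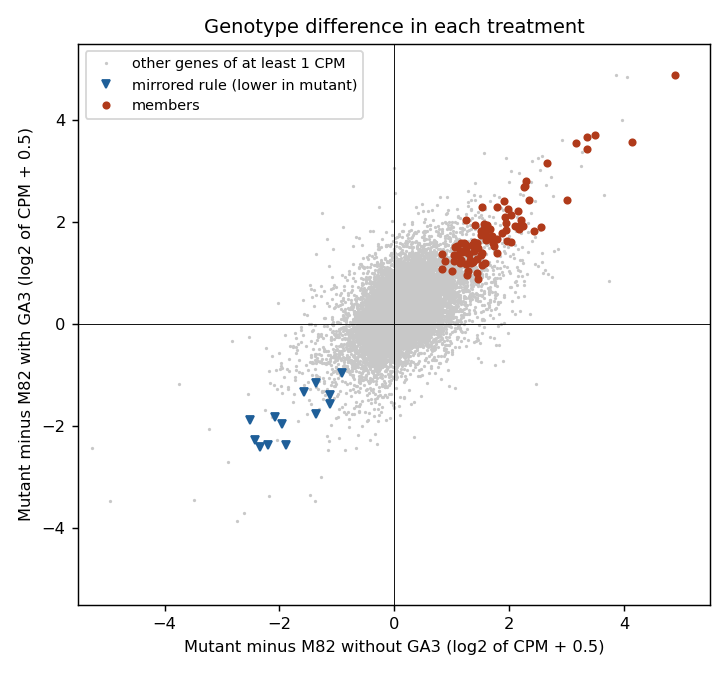
Mutant minus M82 in the libraries without GA3 (horizontal) and with GA3 (vertical), as log2 of CPM + 0.5, for the 16205 genes of at least 1 CPM. Members (red) lie at or above 0.82 on the horizontal and 0.89 on the vertical axis, close to the diagonal as the GA3 limits require, and the cloud of all genes (grey) is centred above 0, with medians of 0.10 and 0.29.

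The genotypes were compared in separate libraries in each treatment, so a genotype difference found in one treatment can be looked up in the other. In M82, though, the deviations of the number 1 libraries from their group means correlated across genes at 0.54 between the treatments. The part of that shared spread in the look-up was not tested. By library totals, 533 genes of at least 1 CPM had a gap of at least 0.7 in the 4 libraries without GA3, among them all 91 members. In the 4 libraries with GA3, which that choice used only for the CPM minimum, 431 of the 533 (80.9%) had both mutant values above both M82 values, against 42.1% of all 16205 genes. A gap of at least 0.7 was found there in 227 (42.6%), against 5.28% of all. The median difference was 1.05, against 0.29 for all genes. Most genes with a gap without GA3 thus lay higher in the mutant with GA3 as well. The members are the part of them that also met the joint gap and the GA3 limits. All 91 lay higher in both treatments by the rule, so this look-up does not test them.

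In the reverse direction, 856 genes had a gap of at least 0.7 in the libraries with GA3. Of these, 582 (68.0%) had both mutant values above both M82 values without GA3, against 23.3% of all, and 227 (26.5%) had a gap of at least 0.7, against 3.29% of all. With TMM scaling the lists were shorter and less unequal, at 453 and 415 genes. The shares without overlap in the other treatment were then 70.9%, against 24.4% of the 16181 genes, and 71.3%, against 18.7%.

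The GA3 differences of the members were small, as the rule required, and are set here beside those of all genes. In M82 the GA3 difference ran from -0.42 to 0.49 with a median of 0.040, and in the mutant from -0.39 to 0.49 with a median of 0.17 (log2 of CPM + 0.5). The medians of all 16205 genes on that scale were -0.044 and 0.12, so that the mutant median lay near that of all genes. With TMM the medians were 0.094 and 0.030, against 0.011 and -0.013 for all genes. In the mutant, 68 of 91 members (74.7%) lay above 0 by library totals, against 68.4% of all genes, and 51 (56.0%) with TMM, against 47.8%. In M82, 55 members (60.4%) lay above 0 by library totals, against 45.2% of all genes, and 60 (65.9%) with TMM, against 51.3%.

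In M82, edgeR called 0 members for GA3, where 0.0164% of all genes were called. At an unadjusted p under 0.05 lay 2 members, both higher with GA3, beside 840 higher and 558 lower among all 18340 genes. In the mutant, edgeR called 0 of the 91, as of all genes (0%). At an unadjusted p under 0.05 lay 0 members, beside 271 higher and 218 lower among all genes. For the difference of the GA3 effects edgeR called 0 (0% of all genes). There 2 members had an unadjusted p under 0.05, both with the lower effect in the mutant, beside 247 higher and 442 lower among all. DESeq2 called 0 members in all 3 contrasts, where it called 0.589%, 0.158% and 0.109% of all genes. Its members at an unadjusted p under 0.05 numbered 0, 0 and 1. Among all genes 719, 251 and 277 were higher at that p and 713, 188 and 373 lower. The rule capped these differences, and with 2 libraries per group a p above the threshold does not show that GA3 left these genes alone.

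**Figure D4:**
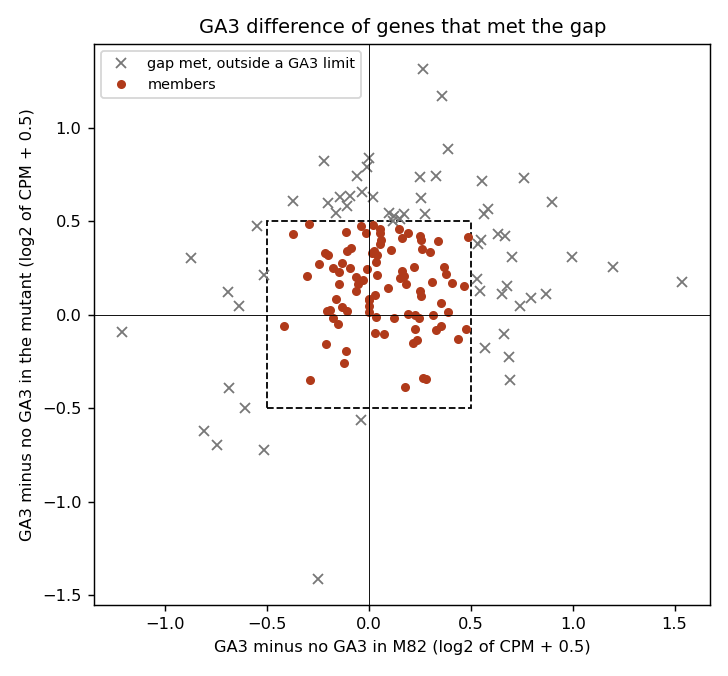
GA3 minus no GA3 in M82 (horizontal) and in the mutant (vertical), as log2 of CPM + 0.5, for the 152 genes that met the mean and the gap. Red points are the 91 members, inside the dashed limits of 0.5, and grey crosses the 61 genes outside a limit.

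The GA3 limits removed 61 genes that met the gap, 35 by the limit in M82 and 34 by that in the mutant, with 8 removed by both. The limits apply to means of 2 libraries, and the libraries themselves were often further apart. In 63 of 91 members (69.2%) the 2 libraries of at least 1 group differed by 0.5 or more, against 71.3% of all 16205 genes, and in 29 (31.9%) by 1 or more, against 24.9%. By group, the share of members at 0.5 or more was 36.3% in M82 and 30.8% in M82 with GA3, against 42.7% and 37.4% of all genes. In the mutant it was 27.5% without and 36.3% with GA3, against 23.5% and 28.6% of all genes. In the remaining 28 members all 4 groups agreed within 0.5.

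The mutant libraries differed along their numbers in some members. In 30 of 91 (33.0%) both number 1 mutant libraries were above both number 3 libraries, against 20.1% of all 16205 genes, and in 12 (13.2%) both were below, against 12.4%. The distance was at least 1 in 2 members (2.20%), against 0.290% of all. One was the gene on chromosome 1 with 81 and 94 counts in the number 1 libraries and 9 and 8 in the others. The other, on chromosome 10, had 144 and 148 CPM in the number 1 mutant libraries without and with GA3, and 71.3 and 67.5 CPM in the number 3 libraries, against 20.2 to 26.0 CPM over the M82 libraries. In M82, 25 members (27.5%) were higher in both number 1 libraries and 21 (23.1%) lower, against 44.1% and 9.89% of all genes. The other M82 libraries were library 3 without GA3 and library 2 with GA3. Their TMM factors were 0.861 and 0.811, against 1.04 and 1.02 in the number 1 libraries. All these shares are by library totals and were not counted with TMM. What the number stands for is not given in the labels, and its part in these differences was not tested.

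The members lay on all 12 numbered chromosomes. Chromosome 4 held the most, 11 of 91 (12.1%), against 8.36% of the 16205 genes, and chromosome 1 held 10 (11.0%), against 12.9%. Chromosomes 3 and 6 held 5 each (5.49%), against 10.5% and 8.87%. Chromosome 11 held 7 (7.69%), against 6.57%. A further 3 members (3.30%) had identifiers with the number 0, of no numbered chromosome, against 0.623% of all. These shares rest on few genes and were not tested.

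**Figure D5:**
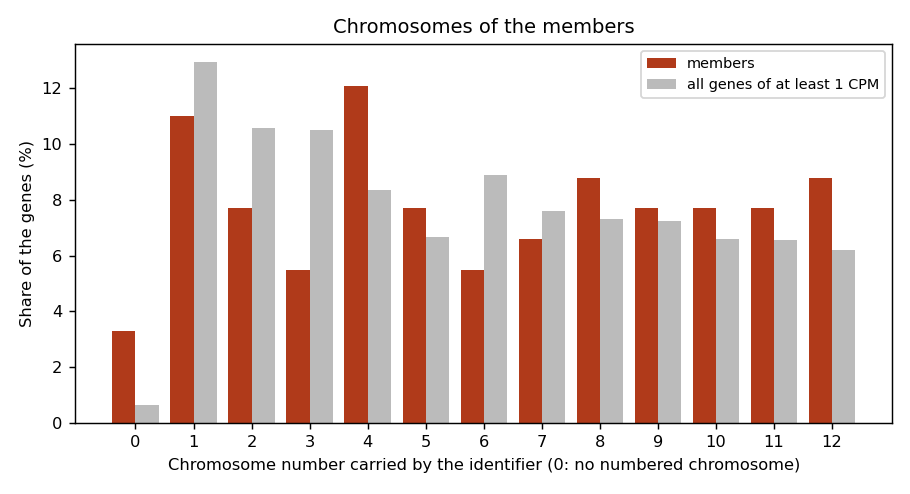
Share of the 91 members (red) and of all 16205 genes of at least 1 CPM (grey) by the chromosome number in the identifier, in percent of each set. Shares of the members run from 3.30% for identifiers with the number 0 to 12.1% for chromosome 4.

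Neighbours in the table occurred among the members. At most 5 rows apart on the same chromosome lay 5 pairs, 3 of them in adjacent rows, on chromosomes 1, 8 and 12, and the others on chromosomes 6 and 9. The first gene of the adjacent pair on chromosome 1 had 64.4 and 34.5 CPM in M82 libraries 1 and 3 without GA3, 49.8 in each M82 library with GA3, and 282 and 148 in mutant libraries 1 and 3 without and 206 and 176 with GA3. The second had 79.5 to 107 CPM in M82 and 271 to 359 CPM in the mutant. Both were well expressed, and the first varied more between libraries than the second.

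The adjacent pair on chromosome 12 differed by library number in the same direction in the 4 mutant libraries. Its first gene had 29.3 and 49.1 CPM in mutant libraries 1 and 3 without GA3 and 30.4 and 39.1 with GA3, above 10.0 to 13.0 CPM in M82. Its second gene had 4.76 and 8.49 CPM in mutant libraries 1 and 3 without GA3 and 4.79 and 10.2 with GA3, above 0.817 to 2.01 CPM in M82. Both genes were higher in the number 3 mutant libraries, with either treatment. Whether neighbouring genes are copies of one another, between which reads could be split, was not analysed here. The expressed genes directly beside members, 169 in number and themselves no members, had a median genotype difference of 0.28, against 0.20 for all genes. Of them, 32 (18.9%) had all mutant values above all M82 values, against 10.9% of all. These neighbour values are by library totals, were not taken with TMM and were not tested.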

How the data were processed

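RNA of young tomato leaves was sequenced in 8 libraries, 2 for each of 4 groups. The authors deposited raw read counts per gene, per the file headers, beside 8 columns of DESeq-normalized counts that were not used here. DESeq2 1.6.3, HTSeq 0.6.1p1 and TopHat2 2.0.10 appear, in no stated order, among the submitters' processing notes. The genome build, the annotation and how reads were assigned to genes are not given in the sources used here. Groups come from the titles and column headers. The headers call the mutant null, which was read here as proΔGRAS, the only mutant line in the titles. On that reading 5 columns matched a title, and 3, with the number 3, matched a group only. Replicates are called biological, without saying whether they were separate plants, and p-values cover only how far these libraries spread. The members and lists were chosen with earlier results of these data known. CPM for the rule are counts over the column total, scaled to 1e6, with a pseudocount of 0.5. Counts were filtered (filterByExpr, minimum count 10), which left 18340 genes with 99.94% of the counts, scaled with TMM and tested with edgeR 4.0.16 (quasi-likelihood, robust, 4 groups, no block) in R 4.3.3, with Benjamini-Hochberg adjustment over all genes tested. DESeq2 1.42.0 was an alternative. The edgeR step was also run on simulated data, with an outcome that is not given here and on which no result above rests. Alternatives were other scalings, filters, pseudocounts and limits, a block and leaving out libraries. Named genes were, as no table pairs identifiers with names, the 2 members with the largest gap. A fold against 0 counts uses a floor of 3 counts over 4 libraries and covers counting error only.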

Additional observations from a re-analysis of the deposited data

How the results depend on the processing

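The set of 91 genes held 58 with a mean of at least 5 CPM, 44 with a gap of at least 1, 38 with a GA3 limit of 0.25 and 152 with no GA3 limit, as these settings' own construction requires, and 89 to 161 without 1 library. It held 177 without both M82 libraries in which few genes took the most counts, an alternative chosen after seeing the data, of which 81 were among the 91. Other pseudocounts gave 84 and 98. The 13 genes of the mirrored rule became 25 with TMM and 25 with RLE. The median log2 fold changes of 1.61 without and 1.50 with GA3 were 1.75 and 1.83 with library totals as the only scaling, 1.47 to 1.69 and 1.37 to 1.65 without 1 library, and 1.73 and 1.65 without both M82 libraries.

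Members called higher were 13 among 54 genes without and 8 among 35 with GA3. The first became 53 among 256 genes without the filter, 62 among 296 with DESeq2, 8 among 26 without both M82 libraries and 1 to 12, among 1 to 115, without 1 library. The second became 16 among 56 genes with library totals only, 53 among 226 without the filter, 4 among 22 with the stricter filter (5 CPM in 2 libraries, 75 members fitted), 59 among 280 with DESeq2, 19 among 83 in a fit of the 4 libraries compared and 2 to 37, among 2 to 127, without 1 library. The cause was not tested. With number 1 against the other library as a replicate block the counts were 32 among 124 genes and 31 among 96. The deviations of number 1 libraries from their group means correlated across genes at 0.54 between the treatments of M82 and at 0.030 between those of the mutant, and at -0.079 to 0.25 across genotypes, so the libraries are treated as sharing a number and not as pairs. No member was called for GA3 or for the difference of GA3 effects under any alternative run. Leaving out 1 library leaves its partner alone, and that partner is then taken to vary as the other groups do.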
